A study of Mus musculus with 2 samples.

Results

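The clustered protocadherin genes were described in long-read RNA sequencing of mouse hippocampus, with the members taken as every annotated gene whose name starts with Pcdha, Pcdhb or Pcdhg. The GENCODE M21 annotation holds 58 such genes, of which 2 share the name Pcdha11. Reads were found for 48 of them, out of 19042 annotated genes with reads. Each library held reads of 41 members, and 34 members had reads in both. By cluster, reads were found for 8 of 14 alpha, 20 of 22 beta and 20 of 22 gamma genes. Every model carrying a member name lay inside the 3 cluster intervals on chromosome 18, on the plus strand (mm10). The alpha interval runs from 36930184 to 37187661, the beta interval from 37264938 to 37524479 and the gamma interval from 37661793 to 37841873. Both libraries came from female B6CASTF1/J mice aged 14 days, an F1 cross between the strains C57BL/6J and CAST/EiJ, and the labels give the tissue as layer of hippocampus. There was 1 group of 2 biological replicates, each a pool of 3 animals from which 2 µg of total RNA was taken, and no second condition. The labels number different animals for the pools, 6 in all, although a description line repeats the animals of replicate 1 for both, and they name no genotype or treatment beyond the strain.

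Clustered protocadherins are cell-surface adhesion proteins of neurons that bind like molecules on other cells. In the alpha and gamma clusters each variable exon has its own promoter and encodes the extracellular, membrane-spanning and first intracellular part of one protein, and splicing joins it to a shared set of constant exons that encode the common intracellular end. The beta genes lack constant exons, and each is a gene of 1 coding exon. Single neurons are known to choose among the alternate alpha, beta, gamma A and gamma B promoters, while the C-type genes Pcdhac1, Pcdhac2, Pcdhgc3, Pcdhgc4 and Pcdhgc5 are used more evenly. The combination on a cell surface serves self-recognition and the spacing of its dendrites and axons, and Pcdhgc4 is known for its part in the survival of interneurons. In tissue RNA, fewer cells using an exon and less RNA per cell cannot be told apart.

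Replicate 1 held 1168366 reads and replicate 2 held 888704, so 1 read was worth 0.856 and 1.13 CPM (reads scaled to a library total of 1000000). A long read is counted once whatever its length, so the CPM of different genes were compared without division by length. Whether transcripts of different length were recovered equally within a library was not tested. Reads were found for all 18 marker genes checked for hippocampal neurons, glia, vessels and choroid plexus, and Slc17a7, the vesicular glutamate transporter of excitatory neurons, stood at 1131 and 1353 CPM. By the exact binomial test described below, 13 of the 18 markers differed between the libraries, 4 of them higher in replicate 1 and 9 in replicate 2. Among the 11681 annotated genes tested, 10.8% differed, with 5.03% higher in replicate 1 and 5.81% in replicate 2. Those genes had a median of 59 reads over both libraries, and most of the markers had more. The 4 markers higher in replicate 1 were the 3 choroid plexus markers and the excitatory neuron marker Nrgn (2145 and 1852 CPM). The other excitatory neuron marker, Slc17a7, was higher in replicate 2. Ttr had 5325 reads in replicate 1 and 5 in replicate 2, Kcnj13 had 49 and 0, and Clic6 had 22 and 0. Among those higher in replicate 2, the dentate granule marker Prox1 had 6.85 and 38.3 CPM, the astrocyte markers Aldoc and Gja1 had 1233 and 1913 CPM and 623 and 1019 CPM, and the oligodendrocyte marker Mbp had 3287 and 4381 CPM. The part of these markers in the results below was not tested. Tests between the libraries take reads as the unit and compare these libraries, not conditions. Intervals are exact Clopper-Pearson intervals at 95% and cover counting error only, since reads without molecular identifiers may copy the same molecule.

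The members held 477 reads in replicate 1 and 457 in replicate 2, or 461 ± 74.9 CPM (SD, n = 2). The gamma cluster took most of them, with 317 reads (271 CPM) in replicate 1 and 325 reads (366 CPM) in replicate 2. Its share of the member reads was 66.5% (62.0 to 70.7%) and 71.1% (66.7 to 75.2%). The beta cluster had 94 and 79 reads (84.7 ± 5.97 CPM), and the alpha cluster 66 and 53 reads (58.1 ± 2.23 CPM). The order gamma, beta, alpha was the same in both libraries. The gamma total was higher in replicate 2 (log2 ratio 0.43, exact binomial test, adjusted p = 5.55e-04 over the 3 totals), while the alpha and beta totals had log2 ratios of 0.08 and 0.14 and did not pass (adjusted p = 0.837 for each, same test). The median log2 ratio was 0.11 over the 11681 annotated genes tested, and 0.33 over the 1323 of them with a mean model length of 4000 to 6000 nt. With the expected split taken from genes of similar transcript length, the gamma log2 ratio was 0.10 and did not pass (adjusted p = 0.447, same test).

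Most alpha reads that join a variable exon to the constant exons held the last variable exon, that of Pcdhac2 (chromosome 18, 37143503 to 37146530). Reads that run from the annotated end of a variable exon into the first alpha constant exon (37156155 to 37156213, 59 nt) numbered 40 in replicate 1 and 34 in replicate 2. Of these, 36 and 31 held the Pcdhac2 exon, or 90% (76.3 to 97.2%) and 91.2% (76.3 to 98.1%). The other C-type exon, Pcdhac1, had 1 joined read in replicate 1 and 0 in replicate 2. Through annotated junctions, the 12 alternate alpha exons together had 3 joined reads in each library, 7.50% (1.57 to 20.4%) and 8.82% (1.86 to 23.7%). Those were single reads of Pcdha3, Pcdha9 and Pcdha12 in replicate 1, and of Pcdha5, Pcdha12 and the Pcdha11 entry ENSMUSG00000102206 in replicate 2. Pcdha12 was thus the alternate alpha exon joined through annotated junctions in both libraries. Pcdha1, Pcdha2, Pcdha4, Pcdha6, Pcdha7, Pcdha8 and the Pcdha11 entry ENSMUSG00000007440 had 0 joined reads. The upper bounds of their exact intervals are 8.81% of the joined alpha reads in replicate 1 and 10.3% in replicate 2, and 3 reads would be 7.50% and 8.82%.

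**Figure D1:**
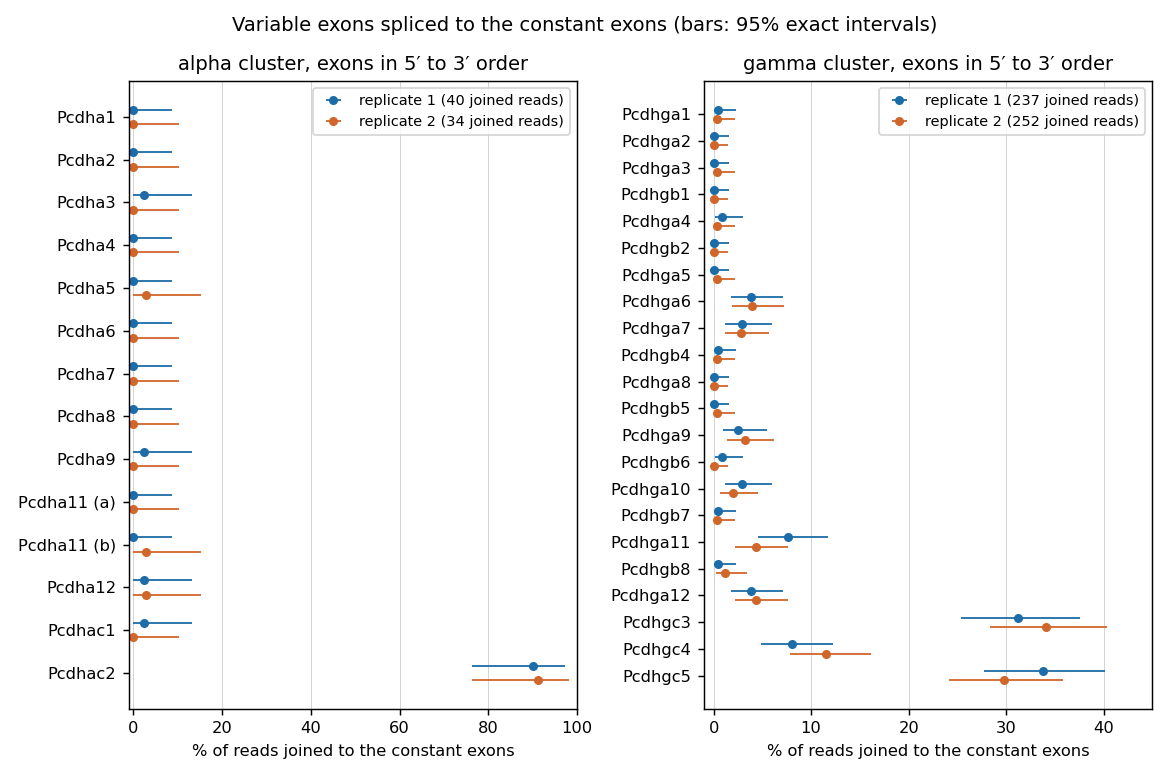
Share of the reads joined to the constant exons through annotated splice sites that holds each variable exon (y axis). The x axis gives the percent of these joined reads, in the alpha cluster (left) and the gamma cluster (right). Points are libraries and horizontal lines are 95% exact intervals; Pcdha11 (a) is ENSMUSG00000007440 and (b) is ENSMUSG00000102206. Pcdhac2 stands at 90% and 91.2% of the alpha reads joined in this way, and Pcdhgc3 and Pcdhgc5 lead such gamma reads with 29.8 to 34.1%.

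Alpha transcripts also differed at their shared end. The third alpha constant exon (37184946 to 37187661) was either read whole or cut by an intron of 428 nt that leaves its first 102 nt. Of the spliced alpha reads that reach it, 10 of 46 in replicate 1 (21.7%, 10.9 to 36.4%) and 7 of 50 in replicate 2 (14.0%, 5.82 to 26.7%) had that intron spliced out. Among reads with the Pcdhac2 exon it was spliced out in 8 of 36 and in 5 of 31. The annotation lists this intron for 5 gene names (Pcdha1, Pcdha2, Pcdha4, Pcdha6 and Pcdha11) and not for Pcdhac2. All 10 and all 7 of these reads carried the deposited name Pcdha2.

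A second set of alpha reads reached the constant exons through junctions that the annotation does not hold, 5 reads in replicate 1 and 16 in replicate 2. In 3 and 12 of them the first part of an upstream alpha exon was spliced into the exon of Pcdha12, and from there to the constant exons. The upstream part came from 6 exons, those of Pcdha2, Pcdha3, Pcdha4, Pcdha5, Pcdha9 and Pcdha11 (ENSMUSG00000102206). It ended 82 to 465 nt from the start of its own exon and was joined 161 to 403 nt from the start of the Pcdha12 exon, and the distances on the 2 sides of a junction differed by at most 83 nt. The acceptor at position 37020458 took 10 of these 15 reads, and the removed stretch began with GT and ended with AG in 14 of 15. The same letters stood on both sides of the junction over 0 to 102 nt (median 71 over the 13 models). All of these reads left the Pcdha12 exon 18 to 792 nt before its annotated end, and they were named Pcdha2. With all unannotated junctions counted, Pcdhac2 held 37 of 45 joined alpha reads in replicate 1 (82.2%, 67.9 to 92.0%) and 33 of 50 in replicate 2 (66%, 51.2 to 78.8%). The alternate exons then held 7 of 45 (15.6%, 6.49 to 29.5%) and 17 of 50 (34%, 21.2 to 48.8%), of which Pcdha12 had 5 and 15. How these reads arose was not tested.

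In the gamma cluster the C-type exons held most of the joined reads. Annotated splice sites of variable exons were joined to the first gamma constant exon (37825021 to 37825079, 59 nt) in 237 reads of replicate 1 and 252 of replicate 2. Of these, 202 and 227 left from the full end of the exon, and 35 and 25 from an annotated site inside it. Only Pcdhgc4 and Pcdhgc5 have such a site among the gamma exons. The shares of joined gamma reads given here count both kinds. The 3 C-type exons took 173 and 190 of them, 73.0% (66.9 to 78.5%) and 75.4% (69.6 to 80.6%). Pcdhgc3 had 74 and 86 joined reads (80.05 ± 23.6 CPM, SD, n = 2), Pcdhgc5 80 and 75 (76.4 ± 11.3 CPM) and Pcdhgc4 19 and 29 (24.4 ± 11.6 CPM). Pcdhgc3 and Pcdhgc5 changed places between the libraries, with overlapping intervals in each, and both lay above Pcdhgc4 in both libraries. That holds with both kinds of site counted. Among reads from the full end of the exon, Pcdhgc3 led in both libraries, with 74 and 86 against 48 and 52 for Pcdhgc5. Their exons are the last 3 of the cluster before the constant exons.

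The 12 gamma A exons together had 59 and 56 joined reads, 24.9% (19.5 to 30.9%) and 22.2% (17.2 to 27.9%), and 10 of the 12 were joined at least once. Pcdhga11 led them with 18 and 11 reads (13.9 ± 2.14 CPM). Pcdhga12 had 9 and 11, Pcdhga6 had 9 and 10, Pcdhga7 had 7 and 7, Pcdhga9 had 6 and 8, and Pcdhga10 had 7 and 5. The intervals of these 6 exons overlapped in both libraries, and their order was not tested. The 7 gamma B exons had 5 and 6 joined reads in all, 2.11% (0.688 to 4.85%) and 2.38% (0.879 to 5.11%), and the most read of them, Pcdhgb8, had 1 and 3. The gamma A group was above the gamma B group in both libraries, with intervals that did not overlap. Pcdhga2, Pcdhga8, Pcdhgb1 and Pcdhgb2 had 0 joined reads, with upper bounds of 1.54% and 1.45%, where 3 reads would be 1.27% and 1.19%.

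Over both clusters, 25 of 36 variable exons were joined to their constant exons at least once, 20 in replicate 1, 21 in replicate 2 and 16 in both. The joined reads were concentrated: 10 exons (4 C-type and 6 gamma A) had 12 or more reads over both libraries, and the other 15 had 1 to 4. Fisher's exact test of each of those 10 exons against the other joined reads of its cluster called 0 of 10, and 0 passed at an unadjusted p under 0.05 (smallest p = 0.179, for Pcdhga11, adjusted p = 1.00). This test leaves out the alpha reads with unannotated junctions, whose share of the alpha reads was 7.58% (2.51 to 16.8%) in replicate 1 and 25.0% (15.0 to 37.4%) in replicate 2, a difference that was not tested.

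Among the gamma C-type genes, Pcdhgc4 and Pcdhgc5 have annotated splice sites inside the exon, and Pcdhgc3 has none. The 74 and 86 joined reads of Pcdhgc3 thus all left from the annotated end by definition, since joined reads use annotated sites. Pcdhgc5 used a site near the start of its exon in 32 of 80 reads of replicate 1 (40.0%, 29.2 to 51.6%) and 23 of 75 of replicate 2 (30.7%, 20.5 to 42.4%), and Pcdhgc4 in 3 of 19 and 2 of 29. Most of the Pcdhgc5 reads of this kind were the annotated transcript Pcdhgc5-204, with 30 and 18 reads, which leaves the exon after 200 nt at a GC in place of the usual GT. The transcript Pcdhgc5-202, which keeps the intron before the first constant exon, was read 7 times in replicate 1 (2.03% of the gamma reads) and 17 times in replicate 2 (4.89%) (Fisher's exact test, p = 0.0594). A further 8 reads in each library left the Pcdhgc3 exon after 168 nt, at a GT that the annotation does not use. These reads also reached the first constant exon and lie outside the 74 and 86 joined reads. They carried the name Gm42416.

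Other gamma joins were few. Reads that reach the constant exons from outside any variable exon numbered 12 and 11, and 11 and 11 of these belonged to Gm38182, an annotated non-coding gene of 5 transcripts that starts just before the first constant exon and shares it. Joins of 2 gamma variable exons were seen in 3 and 3 reads, from Pcdhgb7 into Pcdhgb8 and from Pcdhgb5 into Pcdhgb6. The second gamma constant exon (37833265 to 37833353, 89 nt) was entered 3 nt early in 1 of 270 spliced reads in replicate 1 and in 10 of 293 in replicate 2. In replicate 1, 3 further spliced reads began at that earlier position (37833262), with no junction into it. These 3 were named Gm42416 and the 1 read Pcdhgc3.

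Reads without a variable exon made up a large part of both clusters. Counting every plus-strand model of the interval whatever its name, 21 of 66 alpha reads in replicate 1 (31.8%, 20.9 to 44.4%) and 11 of 64 in replicate 2 (17.2%, 8.91 to 28.7%) lay in the constant exons only. In the gamma cluster these were 68 of 345 (19.7%, 15.6 to 24.3%) and 49 of 348 (14.1%, 10.6 to 18.2%). All but 1 of the alpha reads and all but 3 and 1 of the gamma reads among them were 1-exon models in the third constant exon. Models of 1 exon, wherever they lay, held 20 and 14 alpha reads (30.3% and 21.9%) and 72 and 55 gamma reads (20.9% and 15.8%). The shares of constant-only and of 1-exon reads were higher in replicate 1 in both clusters, and none of the differences passed Fisher's exact test (adjusted p = 0.127 to 0.321 over 4 tests). The median model length was 1965 and 1968 nt for gamma reads in the constant exons only, against 4724 nt in both libraries for joined gamma reads, and 2182 and 2716 nt against 5888 nt in the alpha cluster. The third constant exon is 1971 nt in the gamma and 2716 nt in the alpha cluster, so a model inside it is short by its class. How the short models arose was not tested.

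**Figure D2:**
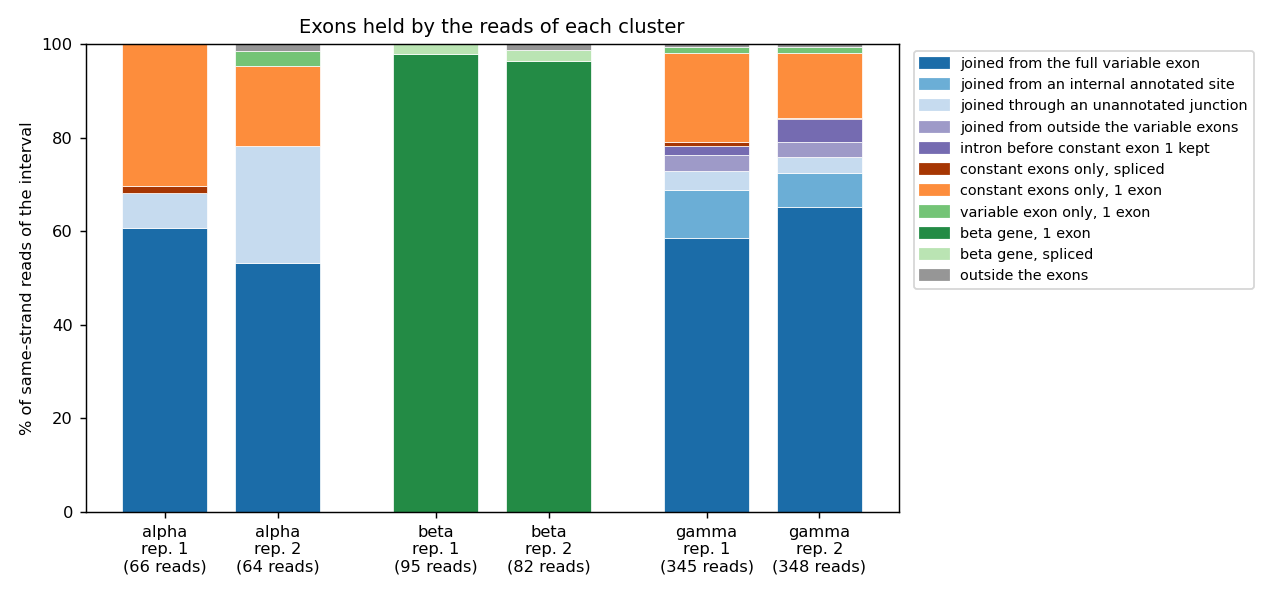
Composition of the plus-strand reads of each cluster interval (y axis, percent of the reads named under each bar), by the exons they hold, for both libraries. Reads joined from the full variable exon form the largest class in the alpha (60.6% and 53.1%) and gamma (58.6% and 65.2%) clusters, and 1-exon models hold nearly all reads of the beta cluster.

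A read that lies in the constant exons alone belongs to the cluster and to no member, and the deposited tables gave it the name of 1 member or of another gene. The names differed between the libraries. In the third gamma constant exon (37839903 to 37841873), a 1-exon model of 65 reads in replicate 1 was named Pcdhgc4, starting at 37839906, and a 1-exon model of 48 reads in replicate 2 was named Pcdhga2, starting 3 nt earlier at 37839903. Both end at 37841870. In the third alpha constant exon, replicate 1 had 14 reads named Pcdha2 (37185476 to 37187657) and 6 named Pcdhac2 (37184946 to 37185476), while replicate 2 had 11 reads named Gm37388 over the whole exon.

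**Figure D3:**
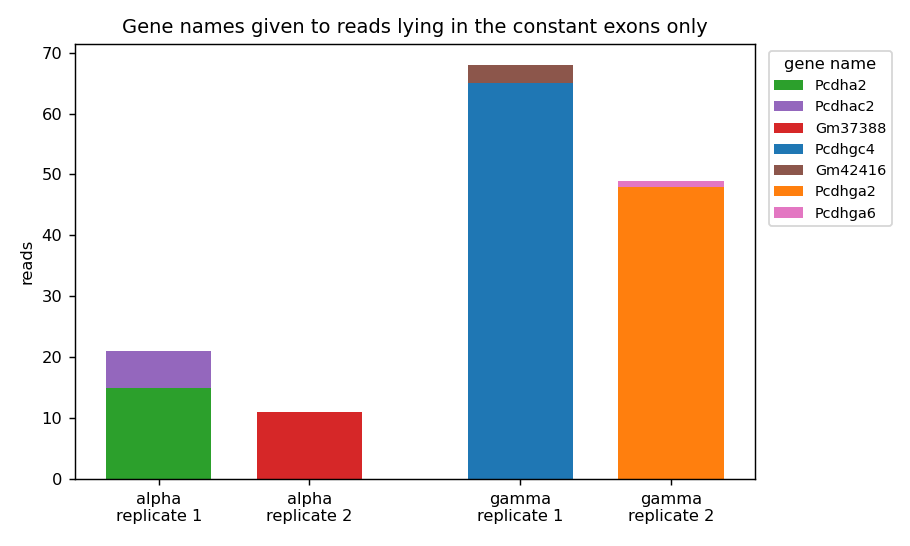
Number of reads lying in the constant exons only (y axis) in each cluster and library, coloured by the gene name in the deposited tables. The gamma reads are named Pcdhgc4 in replicate 1 (65 reads) and Pcdhga2 in replicate 2 (48 reads), and no name is shared between the libraries in either cluster.

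Names and exons also parted among reads that do hold a variable exon. In the alpha cluster the name was not that of the exon held in 14 of 45 such reads in replicate 1 (31.1%, 18.2 to 46.6%) and 22 of 52 in replicate 2 (42.3%, 28.7 to 56.8%). All of these were named Pcdha2. Pcdha2 had 29 and 22 reads by name, and 0 in either library had its exon as their main variable exon, although 2 reads of replicate 2 began in it and went on to Pcdha12. In the gamma cluster a member name differed from the exon held in 0 of 250 reads in replicate 1 and in 9 of 274 in replicate 2 (3.28%, 1.51 to 6.14%). Those 9 were named Pcdhga6. In replicate 2 all 10 reads that entered the second constant exon 3 nt early carried the name Pcdhga6. Of these, 9 held 8 different variable exons, that of Pcdhga6 itself among them, and 1 held none. Where the interval is counted whatever the name, 13 of 263 and 21 of 286 gamma reads carried a name other than that of their exon.

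Every plus-strand read of the 3 intervals without a member name was named Gm37388, Gm42416 or Gm38182. Gm37388 and Gm42416 are annotated as protein-coding genes whose first exons overlap those of Pcdha7 and Pcdha4. They run over 857.4 and 887.5 kb across all 3 clusters, and end in the gamma constant exons. Gm42416 had 17 and 12 reads and Gm37388 had 2 and 14, and 0 of them in either library held the annotated join from the alpha exon to the gamma constant exon. In the intervals, Gm42416 took 4.93% and 3.45% of the gamma reads, Gm38182 3.19% and 3.16%, and Gm37388 17.2% of the alpha reads of replicate 2. In the beta interval Gm37388 had 1 read in replicate 1 and 3 in replicate 2.

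The comparison of members between the libraries turned on these names. By name, 16 members had the 10 reads over both libraries needed for the exact binomial test and 2 passed, against 10.8% of the 11681 annotated genes tested. Pcdhgc4 had 87 reads (74.5 CPM) in replicate 1 and 33 (37.1 CPM) in replicate 2 (log2 ratio -0.98, adjusted p = 0.00846, same exact test over all genes). Pcdhga2 had 0 reads in replicate 1 and 48 (54.0 CPM) in replicate 2, at least 21-fold higher against the 3 reads that a count of 0 allows (adjusted p = 1.38e-15, same exact test). With the expected split taken from genes of similar transcript length the same 2 members passed, against 2.66% of all genes. Both calls rest on the 1-exon models of the third constant exon, 65 of the 87 and all 48 reads. With reads given to the variable exon they hold, 16 members were tested by the same exact test. Of these 0 passed, against 10.8% of all genes. At an unadjusted p under 0.05 there were 4, all higher in replicate 2. The share of all genes at that unadjusted level was not computed. The count by exon was not tested with the split by transcript length. By exon, Pcdhgc4 had 23 and 33 reads (19.7 and 37.1 CPM, log2 ratio 0.88, adjusted p = 0.150, same exact test) and Pcdhga2 had 0 and 0. Pcdha12 went from 1 and 1 reads by name to 5 and 15 by exon (log2 ratio 1.76, adjusted p = 0.0662, same exact test). Of those 5 and 15 reads, 3 and 12 began in another alpha exon. They were given to Pcdha12 as the exon of longest overlap. Pcdhga6 went from 9 and 20 to 9 and 10. Pcdhgc3 had 82 and 95 reads by exon (log2 ratio 0.60, adjusted p = 0.0570). Pcdhgc5 had 90 and 93 (log2 ratio 0.44, adjusted p = 0.224).

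**Figure D4:**
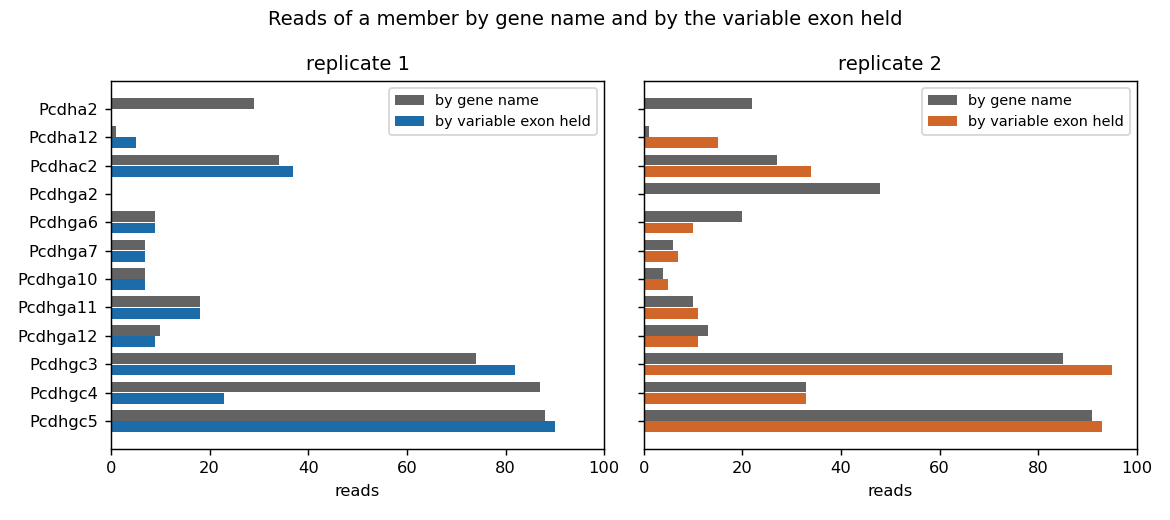
Reads (x axis) of each alpha or gamma member (y axis) counted by gene name (grey) and by the variable exon held (coloured), in replicate 1 (left) and replicate 2 (right). Shown are the members with at least 10 reads by either count for which the counts differ. Pcdha2 and Pcdhga2 have reads by name only, and Pcdhgc4 falls from 87 to 23 reads in replicate 1 and stays at 33 in replicate 2.

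The beta genes carried little of this ambiguity. Of the plus-strand reads of the beta interval, 93 of 95 in replicate 1 and 79 of 82 in replicate 2 were 1-exon models of a beta gene, and each member-named read lay on the gene it was named for. Pcdhb9 and Pcdhb7 led both libraries. Pcdhb9 had 16 and 19 reads (17.5 ± 5.43 CPM, SD, n = 2) and Pcdhb7 17 and 17 (16.8 ± 3.24 CPM), together 35.1% and 45.6% of the beta reads. Over both libraries Pcdhb12 followed with 9 and 8 reads (8.35 ± 0.918 CPM), and Pcdhb20 had 12 and 4. Pcdhb13 had 5 and 4, Pcdhb10 had 5 and 3, and Pcdhb19 had 4 and 3. Pcdhb4 had 2 and 4, and Pcdhb18 had 4 and 2. Of the 4 beta genes tested between the libraries by name, 0 passed the exact binomial test and 0 had an unadjusted p under 0.05, with adjusted p from 0.554 for Pcdhb20 to 1.00 for Pcdhb12. The members nearest to the read minimum were Pcdhb10 and Pcdhb13, with 8 and 9 reads and so not tested, and Pcdhga10, with 11 and tested. Pcdhb1 and Pcdhb16 had 0 reads in either library.

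**Figure D5:**
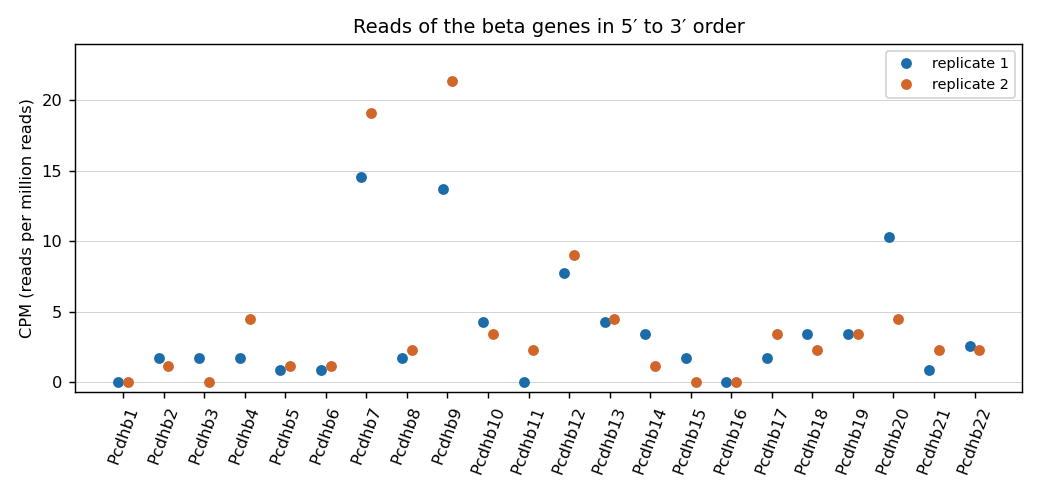
Level of each beta gene (y axis, CPM) in replicate 1 and replicate 2, with the genes in their order along the chromosome (x axis). Pcdhb7 and Pcdhb9 lie at 13.7 to 21.4 CPM, above all other beta genes in both libraries.

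By name, 10 members had no reads in either library. These were Pcdha1, Pcdha3, Pcdha4, Pcdha6, Pcdha7, Pcdha8, Pcdhb1, Pcdhb16, Pcdhgb1 and Pcdhgb2. A count of 0 allows 2.57 CPM in replicate 1 and 3.38 CPM in replicate 2, so a low level of each was not detectable at this depth. Pcdha3 had a joined read that carried the name Pcdha2.

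The variable exons were not equally alike, and the part of their likeness in the mixed names or 2-exon joins was not tested. Over the variable exons in the GENCODE M21 transcripts, the alternate alpha exons were 71.7 to 82.0% identical to each other (66 pairs, median 75.4%), and 50.9 to 53.9% identical to the C-type alpha exons. Gamma A exons were 63.1 to 77.4% identical among themselves and gamma B exons 67.5 to 78.5%. The 3 gamma C-type exons, which held most reads, were 52.9 to 55.8% identical to each other.

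Genes that work beside the clustered protocadherins had reads in nearly all cases. The non-clustered protocadherins, which have no shared constant exons, had reads for 11 of 12 genes and summed to 277 and 353 CPM, led by Pcdh8 (106 ± 29.99 CPM, SD, n = 2), Pcdh20 (95.5 ± 22.5 CPM) and Pcdh10 (23.7 ± 1.64 CPM). Their sum stood below the sum of the clustered members in both libraries (408 and 514 CPM). Genes of chromatin looping and promoter choice had reads for 12 of 12, led by Wiz (44.05 ± 28.4 CPM) and the cohesin subunits Smc1a (39.04 ± 11.6 CPM) and Smc3 (37.3 ± 9.24 CPM). The genes of the proteases that cleave protocadherins had reads for 6 of 6, among them Ncstn (73.2 ± 3.08 CPM) and Psenen (42.3 ± 15.2 CPM), subunits of gamma-secretase. Cytoplasmic partners had reads for 11 of 11, led by the kinase Fyn (359.7 ± 91.2 CPM), Nckap1 of the WAVE complex (319 ± 104 CPM) and the kinase Ptk2b (277 ± 77.97 CPM). Between the libraries, 1 of 7 tested non-clustered protocadherins (Pcdh8), 1 of 10 chromatin genes (Wiz), 0 of 6 protease genes and 5 of 11 partners were higher in replicate 2, and 0 in the 4 lists were higher in replicate 1, against 5.81% (higher in replicate 2) and 5.03% (higher in replicate 1) of all genes tested (same exact binomial test). The 5 called partners had 228 to 722 reads over both libraries, while the median of all genes tested was 59. The lists' median log2 ratios were 0.30, 0.48, 0.22 and 0.39. The 16 members tested by name had 0.29 and all genes 0.11. Genes with a mean model length of 4000 to 6000 nt had 0.33.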

How the data were processed

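Long-read RNA sequencing was analysed in 1 group of 2 libraries. The authors deposited raw read counts per transcript model, with read totals of 1168366 and 888704, and per the file headers used mm10 and GENCODE M21; the deposited annotation marks its models with TALON identifiers. The sources used here do not name the aligner. Models with 1 read are listed, so counts carry single-read error. Unannotated models carry identifiers of their own in each library. Model exons came from the deposited annotation of each library and gene exons from GENCODE M21. Every plus-strand model overlapping a cluster interval was classed by exact annotated splice sites and by the variable exon of longest overlap, whatever its name. CPM used all reads, and log2 ratios an added 1 CPM. A gene was tested when its summed count reached 10 reads, by an exact binomial test (smaller tail doubled) with Benjamini-Hochberg adjustment at 0.05. Fisher's exact test compared shares. Members, lists and the rule for named genes were chosen with earlier results of these data known. Named were the 8 most read members per cluster, the 5 C-type genes, members with 0 reads, called members, exons with at least 5 joined reads, other names with at least 1% of an interval's reads, and the 3 most read genes of each of 4 related lists, of which 1 is not reported here. Other genes named were chosen after their values were seen. Alternatives were other read minimums, scalings (TMM of edgeR 4.0.16, DESeq2 1.42.0 size factors), annotated transcripts only, an expected split from 20 bins of transcript length, looser junctions, other exon rules and each library alone. Identity of variable exons was computed on GENCODE M21 transcript sequences with edlib 1.3.9.post1. The exact binomial test was checked on simulated Poisson counts. These had no length trend and no added spread between libraries, so the check does not cover either. The classing of models was checked on made models, and Fisher's exact test was not checked by simulation. Software was R 4.3.3, Python 3.11.15, scipy 1.17.1, pandas 2.3.3, numpy 2.4.6 and matplotlib 3.10.9. The replicates are pools of 3 animals, and p-values measure read sampling, not the spread between animals.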

Additional observations from a re-analysis of the deposited data

Results flagged for a closer look

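Reads on the minus strand lay outside the measurement of the members. At 1 place between the first and second gamma constant exons (chromosome 18, from 37830603, mm10), a 1-exon antisense model had 10 reads in replicate 1, where it ends at 37831784, and 4 in replicate 2, where it ends at 37831620 (8.56 and 4.50 CPM). Both counts exceed the 3 reads that a count of 0 allows, and the tables give the locus no annotated gene name. In all, antisense reads numbered 17 and 10 in the gamma interval, 3 and 1 in the alpha interval and 1 and 2 in the beta interval.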

How the results depend on the processing

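Of 52 alternatives of the 16 group results that use both libraries, 40 kept the value within the spread between libraries or on the same side of the threshold. With annotated transcripts only, the alpha total fell from 58.1 to 29.02 CPM, the joined share became 100% (alpha) and 93.8% (gamma), and 0 members differed between the libraries. With models of at least 2 reads, the alpha total was 43.1 CPM and the joined alpha share 76.3%. With every same-strand model of the interval, the alpha total was 64.3 CPM, and, in alternatives added after seeing the data, the joined share was 56.9% (alpha, from 62.4%) and 70.6% (gamma, from 76.2%) and the gamma share of reads with another name 6.14% (from 1.64%). The gamma total passed with TMM-scaled totals (log2 ratio 0.30) and not with the expected split by transcript length (0.10). Members that differ numbered 2 under every read minimum and scaling, and 0 by variable exon. Pcdhgc4 turned from -0.98 to 0.99 with annotated transcripts only and to 0.88 by variable exon, without passing. TMM scaling moved the median log2 ratio of all genes from 0.11 to -0.01. A p that sums outcomes no likelier than the one seen, added later, called the same 2 members and 11.5% of all genes. The values of each library alone lie within the spread they define and say nothing of stability. Among reads with a member name, the constant-only alpha share was 31.8% and 0%, and the 1-exon alpha share 30.3% and 5.66%. These leave out the 11 constant-exon alpha reads of replicate 2 named Gm37388. With every plus-strand read of the interval, the constant-only share was 31.8% and 17.2%, and the 1-exon share 30.3% and 21.9%. The gamma share of other names was 0% and 3.28% among reads with a member name. Depth limits the alternate exons: 3 reads are 7.50% and 8.82% of the joined alpha reads.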
